A study of Homo sapiens with 16 samples.

Results

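The genes described here encode 4 proteins that bind, edit or act on double-stranded or foreign RNA, and 1 enzyme that limits such RNA in mitochondria: EIF2AK2, ADAR, ZBP1, ZC3HAV1 and PNPT1. They were taken by their gene symbol, with earlier results of these data known, and all 5 were found once each among the 60612 genes of the deposited count table. The RNA came from NCI-H1944, an established human lung adenocarcinoma line, and each of 8 groups held 2 libraries, 16 in all. SCR cells carried a control guide and are labelled wild type. STING cells carried a guide against STING1 and MAVS cells a guide against MAVS, and DKO cells are labelled as lacking both. Each genotype was given either DMSO or MPS1i, which is BAY-1217389 at 100 nM, an inhibitor of a mitotic checkpoint kinase whose loss leads to errors of chromosome segregation. Exposure to the drug or to DMSO lasted 48 h, the drug was washed out, and the cells then grew for 24 h before RNA was taken. The series asks how far the expression changes after this pulse need STING, MAVS or the pair of them. The labels do not say whether the guide-treated lines were clones or pools, nor whether the replicates are separate cultures, and the spread that the p-values rest on may be technical. RNA per cell was not measured, so a change in the share of cells that express a gene and a change within every cell cannot be told apart.

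Long double-stranded RNA in the cytosol is read as a sign of infection, or of RNA that has escaped from the nucleus or from mitochondria. EIF2AK2, also called PKR, is a kinase that binds such RNA and phosphorylates the translation factor eIF2alpha, which slows protein synthesis. ADAR edits adenosine to inosine in double-stranded RNA and so makes the cell's own duplexes less visible to sensors. ZBP1 binds Z-form nucleic acid and can start necroptosis through RIPK3 and MLKL. ZC3HAV1, also called ZAP, binds RNA rich in CpG and directs it to decay. PNPT1 is an exoribonuclease of mitochondria whose loss lets mitochondrial double-stranded RNA reach the cytosol. All 5 genes are known to respond to type I interferon, ADAR through the promoter of its longer isoform p150. The counts are per gene, so p150 and p110 of ADAR, or the long and short forms of ZC3HAV1, were not separated.

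Library totals ran from 19893784 to 49769938 counts. Levels are given as CPM, the share of counts after scaling of the library totals, with the SD of 2 libraries. Changes are log2 ratios with their standard error, and called means an adjusted p under 0.05 in edgeR's quasi-likelihood test over 17950 genes. STING1, the guide's target, was at 3.74 ± 0.0573 CPM in STING DMSO and at 8.27 ± 0.0317 CPM in SCR DMSO. In DKO DMSO it was at 4.86 ± 0.0461 CPM. STING1 itself rose after MPS1i, by 1.81 ± 0.09 in SCR (adjusted p = 5.7e-15) and by 0.67 ± 0.13 in STING (0.00031). Whether the guide or another change lowered the STING1 transcript was not tested. The MAVS transcript was at 195 ± 0.890 CPM in MAVS DMSO and 186 ± 4.28 CPM in SCR DMSO, a log2 difference of 0.07 ± 0.05 (adjusted p = 0.44), and a guide can end a protein without lowering its mRNA. In DKO DMSO it was at 215 ± 9.83 CPM, 0.20 ± 0.04 above SCR DMSO (adjusted p = 0.00089). So the transcript checks neither the label of the MAVS line nor the MAVS part of the DKO label. Of 10 epithelial markers, 6 reached 1 CPM in every group, led by KRT8 at 1527 to 2211 CPM, while NKX2-1, SFTPB, NAPSA and KRT19 were at most at 0.262 CPM in any group. The 10 immune markers summed to 1.75 to 3.68 CPM, with NKG7 at 0 in all 16 libraries. The 10 stromal and endothelial markers summed to 27.4 to 50.5 CPM, from DCN, LUM, COL1A1 and PECAM1. Each of the 3 sums was higher after MPS1i than under DMSO in all 4 genotypes, DKO included. Immune markers summed to 3.01 to 3.48 CPM in SCR MPS1i against 2.13 to 2.25 CPM in SCR DMSO, and to 2.67 to 2.93 CPM in DKO MPS1i against 1.75 to 2.14 CPM in DKO DMSO. Their part in the results below was not tested.

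The 5 genes lie on the minus strand of GRCh38, per the deposited table. EIF2AK2 (ENSG00000055332) spans chr2:37099210-37157522 and PNPT1 (ENSG00000138035) spans chr2:55634061-55693863. ADAR (ENSG00000160710) spans chr1:154581695-154628013, ZC3HAV1 (ENSG00000105939) chr7:139043515-139132122 and ZBP1 (ENSG00000124256) chr20:57603846-57620576. GPATCH11 overlaps EIF2AK2 on the opposite strand, and its counts were at most 5.12% of those of EIF2AK2 in any library. The strand setting of the counting is not given in the sources used here. A pseudogene within ZC3HAV1 held at most 0.145% of its counts.

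The sequences at the starts of 4 of the genes were searched for interferon-related motifs, as a description. Start windows were taken from RefSeq for EIF2AK2, ZC3HAV1, PNPT1 and, with 3 alternative starts, ADAR (GRCh38.p14, 250 bases before to 50 after the start). Both strands were searched for 3 motifs: the interferon-stimulated response element (ISRE) as GAAANNGAAA, the core bound by interferon regulatory factors as AANNGAAA, and the gamma-activated site (GAS) as TTCNNNGAA. The core can lie inside the ISRE, and of all 35116 windows 3.57% held the ISRE, 22.8% the core and 7.66% the GAS. The stretches below run 5′ to 3′ on the gene's own strand from 120 bases before the start to 19 bases after it, and capitals mark every match.

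EIF2AK2, chr2:37156961-37157100: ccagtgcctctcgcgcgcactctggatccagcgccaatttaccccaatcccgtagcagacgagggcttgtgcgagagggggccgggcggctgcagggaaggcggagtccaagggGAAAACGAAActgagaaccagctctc
ZC3HAV1, chr7:139109701-139109840: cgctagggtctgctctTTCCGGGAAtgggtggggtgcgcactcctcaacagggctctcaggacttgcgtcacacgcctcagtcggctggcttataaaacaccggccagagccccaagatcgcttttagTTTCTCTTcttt
PNPT1, chr2:55693825-55693964: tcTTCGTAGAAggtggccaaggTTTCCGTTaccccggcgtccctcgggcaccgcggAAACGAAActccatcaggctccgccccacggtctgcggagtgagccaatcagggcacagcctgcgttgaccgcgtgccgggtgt

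The EIF2AK2 window held the ISRE across the start itself, beginning 6 bases before it, with the core inside. The PNPT1 window held the core at 2 places, beginning 98 bases (opposite strand) and 64 bases before the start, and a GAS beginning 118 bases before it. In the ZC3HAV1 window the GAS began 104 bases before the start, and a core lay on the opposite strand from base 8 to base 15 after the start. None of the 3 ADAR windows held any of the letters searched, which says only that they are absent from those windows. A match is a description of letters and no sign of binding.

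**Figure D1:**
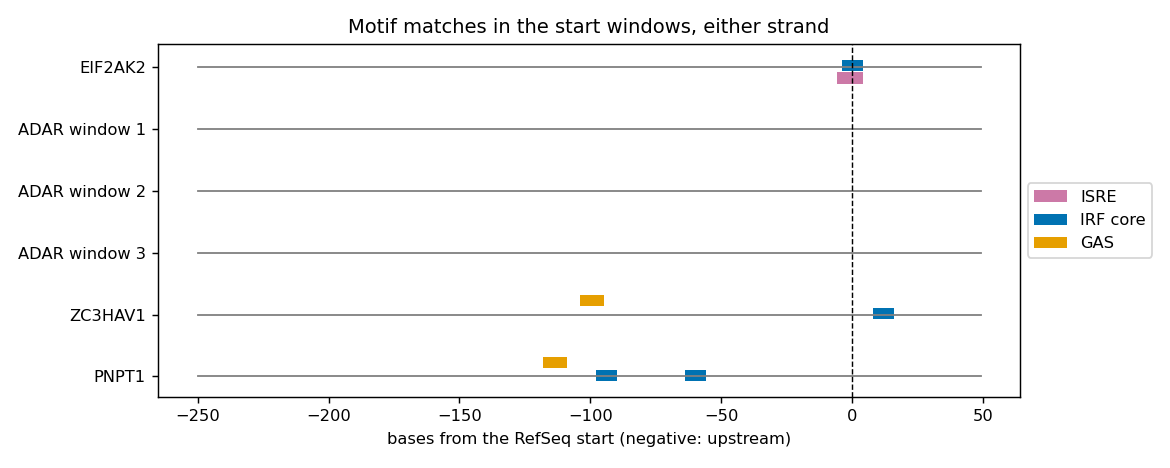
Positions of motif matches in the 300-base RefSeq start windows, in bases from the start (dashed line), negative values upstream; coloured blocks are matches on either strand to the ISRE, the core (IRF core) or the GAS. The EIF2AK2 match crosses the start, PNPT1 has 3 matches upstream, ZC3HAV1 has matches on both sides, and the 3 ADAR windows have none.

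EIF2AK2, ADAR, ZC3HAV1 and PNPT1 all rose after the MPS1i pulse in SCR, STING and MAVS cells, where 50.0%, 29.4% and 33.4% of all genes tested were called. In DKO cells, where 14.8% of all genes were called, their changes were 0.04 to 0.14 on the log2 scale and 2 of them passed the test. ZBP1, nearly absent elsewhere, was counted clearly in SCR MPS1i only, with a trace in MAVS MPS1i. Under DMSO, the 4 expressed genes were lower in STING and DKO cells than in SCR cells, while in MAVS cells their differences from SCR were -0.10 to 0.16 on the log2 scale. All 5 genes passed the filter on low counts, ZBP1 only through SCR MPS1i. The values follow gene by gene.

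EIF2AK2, the kinase PKR, stood at 493 and 533 CPM in the libraries of SCR DMSO and at 1219 and 1299 CPM in SCR MPS1i. STING DMSO libraries held 278 and 286 CPM, and STING MPS1i libraries 1121 and 1071 CPM. MAVS DMSO libraries held 570 and 562 CPM, and MAVS MPS1i libraries 1216 and 1160 CPM. The treated libraries of these 3 genotypes all lay above every DMSO library, and the STING line started from the lower baseline. DKO cells held 236 and 250 CPM under DMSO and 259 and 255 CPM after MPS1i, below all libraries of the other genotypes. The MPS1i effect on EIF2AK2 was 1.30 ± 0.05 in SCR (2.45-fold, adjusted p = 1.3e-17), 1.96 ± 0.05 in STING (3.89-fold, 9.8e-21) and 1.07 ± 0.05 in MAVS (2.10-fold, 2.2e-15). In DKO it was 0.08 ± 0.05 (adjusted p = 0.31). So the largest relative rise of EIF2AK2 was measured in the STING line, whose level after the pulse was still 0.20 ± 0.05 below SCR on the log2 scale (adjusted p = 0.0017).

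ADAR, the editing enzyme, stood in SCR DMSO libraries at 805 and 803 CPM and in SCR MPS1i libraries at 1759 and 1747 CPM. STING libraries went from 553 and 577 CPM under DMSO to 1387 and 1374 CPM after MPS1i. MAVS libraries went from 893 and 895 CPM to 1553 and 1572 CPM. MAVS had the highest untreated level of ADAR. DKO libraries held 517 and 511 CPM under DMSO and 561 and 553 CPM after MPS1i. The MPS1i effect was 1.12 ± 0.04 in SCR (2.18-fold, adjusted p = 3.7e-18), 1.29 ± 0.04 in STING (2.44-fold, 7.0e-19) and 0.81 ± 0.04 in MAVS (1.75-fold, 1.1e-14). The DKO effect of 0.12 ± 0.04 (adjusted p = 0.046) was just under the threshold. It was not called without any 1 of the 4 DKO libraries (adjusted p = 0.056 to 0.23), without a filter (0.15), with the replicate number as a block (0.053) or when only the compared groups were fitted (0.24).

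**Figure D2:**
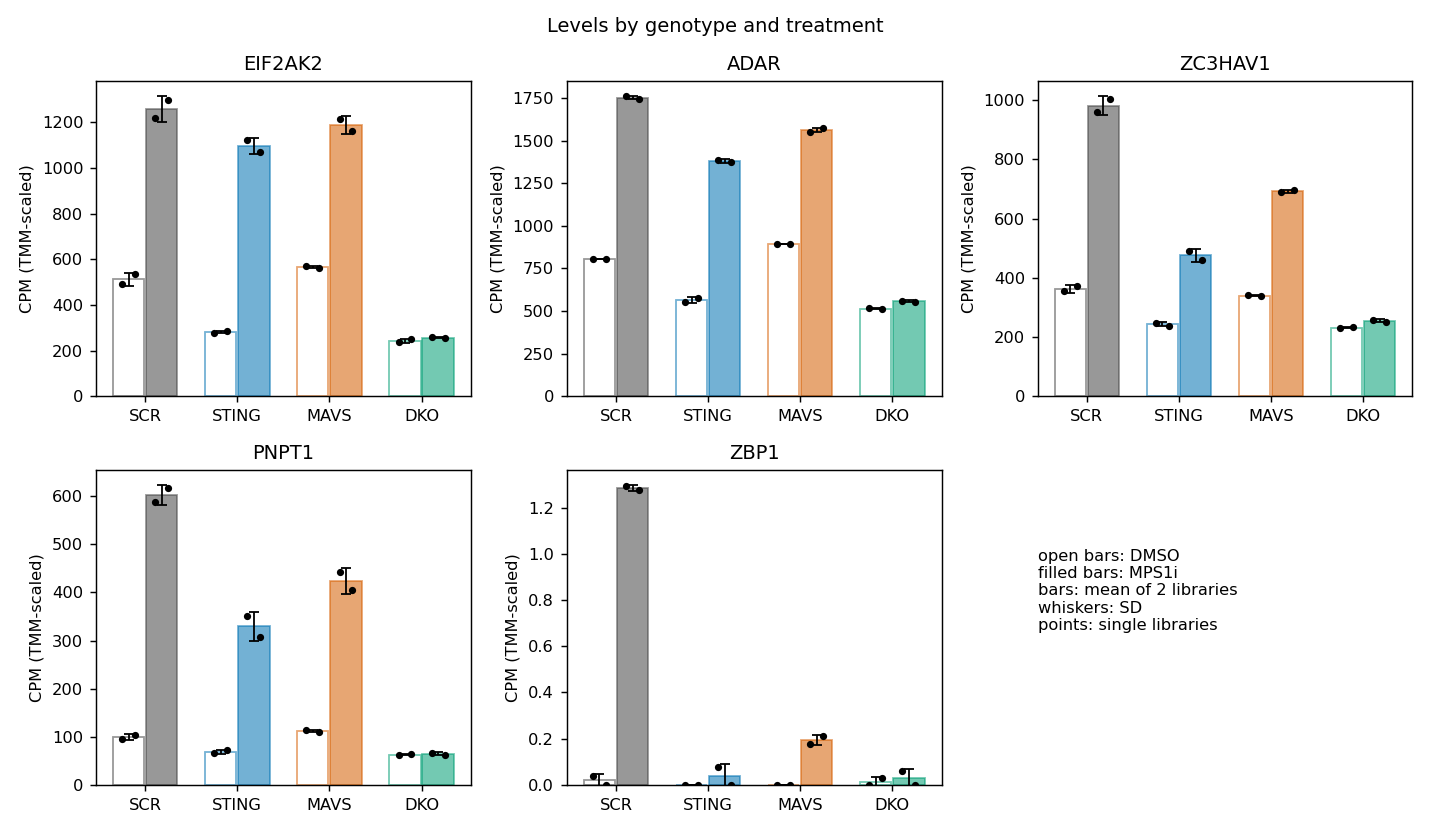
CPM of the 5 genes in the 4 genotypes; open bars are DMSO and filled bars MPS1i, bars show the mean of 2 libraries, whiskers the SD and points the single libraries, each panel with its own linear axis from 0. Filled bars stand above open bars in SCR, STING and MAVS for the 4 expressed genes and barely differ in DKO, and ZBP1 reaches 1.28 CPM only in SCR MPS1i.

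ZC3HAV1, the CpG-binding protein, held 354 and 373 CPM in SCR DMSO and 959 and 1005 CPM in SCR MPS1i. STING libraries went from 247 and 238 CPM to 492 and 460 CPM, and so stayed below all SCR and MAVS libraries given MPS1i. MAVS libraries went from 340 and 338 CPM to 689 and 695 CPM. DKO libraries held 230 and 233 CPM under DMSO and 259 and 252 CPM after MPS1i, a range close to that of STING DMSO. The effect was 1.43 ± 0.05 in SCR (2.70-fold, adjusted p = 4.2e-19), 0.97 ± 0.05 in STING (1.96-fold, 7.7e-15) and 1.03 ± 0.05 in MAVS (2.04-fold, 1.5e-15). In DKO, ZC3HAV1 changed by 0.14 ± 0.05 (adjusted p = 0.035), which was not called without any 1 of the 4 DKO libraries (0.062 to 0.22), without a filter (0.064) or when only the compared groups were fitted (0.15).

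PNPT1, the mitochondrial exoribonuclease, had the widest range of the 4 expressed genes. It stood at 95.7 and 105 CPM in SCR DMSO and at 588 and 618 CPM in SCR MPS1i. STING libraries went from 65.8 and 72.1 CPM to 351 and 308 CPM, and MAVS libraries from 114 and 110 CPM to 443 and 406 CPM. Every treated library of these 3 genotypes was far above the untreated ones, with SCR the highest and STING the lowest. DKO libraries held 62.0 and 64.2 CPM under DMSO and 67.0 and 62.9 CPM after MPS1i, and these overlapped. The effect was 2.59 ± 0.06 in SCR (6.03-fold, adjusted p = 3.2e-19), 2.26 ± 0.07 in STING (4.79-fold, 2.6e-17), 1.92 ± 0.06 in MAVS (3.78-fold, 2.4e-16) and 0.04 ± 0.07 in DKO (adjusted p = 0.74). The mean of the highest group, SCR MPS1i, was 9.56 times that of the lowest, DKO DMSO, for PNPT1. The same ratio was 5.18 for EIF2AK2, 4.24 for ZC3HAV1 and 3.41 for ADAR.

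ZBP1, the Z-nucleic acid sensor, was counted 46 and 56 times in the SCR MPS1i libraries, and 2 and 0 times in SCR DMSO. MAVS MPS1i libraries held 6 and 8 counts and MAVS DMSO libraries 0 and 0. STING libraries held 0 and 0 counts under DMSO and 2 and 0 after MPS1i, and DKO libraries 0 and 1 under DMSO and 2 and 0 after MPS1i. Only the SCR MPS1i and MAVS MPS1i libraries lay above the 3 counts that a count of 0 allows, and even SCR MPS1i held only 1.28 ± 0.0131 CPM. After scaling to the library totals, the ratio of SCR MPS1i to SCR DMSO was 53.9 (exact 95% interval 14.5 to 451, counting error only). The interval is wide because the lower group held only 2 counts. ZBP1 passed the filter only through SCR MPS1i, so it had to differ there, and its comparisons with that group are a description with no test. MAVS MPS1i was at least 1.49-fold higher than MAVS DMSO, taking 3 counts for each DMSO library and the treated counts as they stand. The fit called a difference from no change there (adjusted p = 0.012), on 14 counts against 0, and did not test that fold. No fold is given for STING or DKO, where both treatments were at or under the floor. The pulse effect of ZBP1 could not be compared between genotypes, since the untreated groups were at 0 or near it.

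After MPS1i, the counts of ZBP1 in the guide-treated lines lay below those in SCR, whose 2 libraries all 3 comparisons share. The ratio of SCR to MAVS was 6.57 (exact 95% interval 3.74 to 12.4, counting error only). SCR to STING was 35.4 (9.54 to 296) and SCR to DKO 35.7 (9.62 to 298), each over 2 counts. ZBP1 in MAVS MPS1i was 5.38 times STING MPS1i (1.24 to 48.8) and 5.43 times DKO MPS1i (1.25 to 49.2), and the fit called neither (adjusted p = 0.16 and 0.093).

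Set in the ranking of all 17950 genes tested, the rises of the 4 expressed genes in SCR lay near the top. The genes were chosen with earlier results of these data known, so their ranks are a description only. ADAR, the lowest of them, had a log2 change above 91.3% of all genes tested in SCR, and PNPT1 above 97.7%. In DKO, EIF2AK2, ADAR, ZC3HAV1 and PNPT1 lay above 63.1%, 68.3%, 71.4% and 57.2% of all genes.

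**Figure D3:**
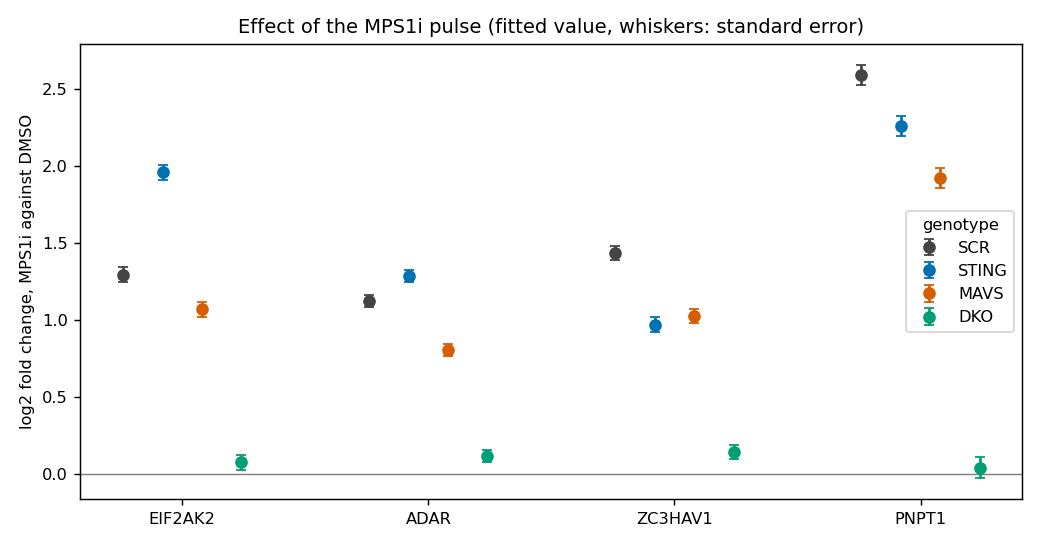
Log2 fold change of MPS1i against DMSO for the 4 expressed genes in each genotype; points are fitted values and whiskers standard errors. EIF2AK2 is highest in STING (1.96), ZC3HAV1 and PNPT1 are highest in SCR (1.43 and 2.59), and all 4 lie near 0 in DKO.

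The next comparison set each guide-treated line against SCR without the drug. Whether the guides or other differences between the lines gave these values was not tested. In STING DMSO, all 4 expressed genes were lower than in SCR DMSO. EIF2AK2 differed by -0.86 ± 0.05 (adjusted p = 2.2e-12), ZC3HAV1 by -0.58 ± 0.05 (1.2e-09), PNPT1 by -0.54 ± 0.07 (9.1e-06) and ADAR by -0.51 ± 0.04 (1.0e-09). The share of all genes called there was 10.2%. DKO DMSO gave differences of -1.08 ± 0.05 for EIF2AK2 (4.8e-15), -0.66 ± 0.07 for PNPT1 (5.8e-08), -0.65 ± 0.05 for ZC3HAV1 (2.6e-11) and -0.65 ± 0.04 for ADAR (1.9e-12), with 31.1% of all genes called. In MAVS DMSO only ADAR was called, at +0.15 ± 0.04 (adjusted p = 0.017), against 6.56% of all genes. That call was lost without any 1 of the 4 libraries compared, SCR DMSO 1 or 2 or MAVS DMSO 1 or 2 (adjusted p = 0.064 to 0.12). In the same comparison EIF2AK2 had 0.14 ± 0.05 (0.077), PNPT1 0.16 ± 0.06 (0.15) and ZC3HAV1 -0.10 ± 0.05 (0.22). These 3 comparisons share the SCR DMSO libraries. ZBP1 was at or under the floor in every DMSO group.

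The STING and MAVS lines were also set against each other, which leaves SCR out. Under DMSO, EIF2AK2 was 1.01 ± 0.05 higher in MAVS than in STING (2.01-fold, adjusted p = 6.2e-14), PNPT1 0.70 ± 0.07 (2.5e-07), ADAR 0.66 ± 0.04 (4.3e-12) and ZC3HAV1 0.48 ± 0.05 (4.0e-08). All 4 were called where 4.63% of all genes were. After MPS1i the MAVS line was higher by 0.54 ± 0.04 for ZC3HAV1 (2.9e-09), 0.36 ± 0.06 for PNPT1 (0.00028) and 0.18 ± 0.04 for ADAR (0.0028), with 10.7% of all genes called. EIF2AK2, which differed most under DMSO, was at 0.12 ± 0.05 after the pulse and was not called (0.12).

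After the pulse, the levels in the guide-treated lines lay below SCR by amounts that differed between the genes. STING and DKO were already below SCR under DMSO. ZC3HAV1 in STING MPS1i was 1.05 ± 0.04 below SCR MPS1i on the log2 scale (adjusted p = 1.3e-15) and PNPT1 0.87 ± 0.06 below (1.4e-10). ADAR was 0.34 ± 0.04 below (1.1e-07) and EIF2AK2 0.20 ± 0.05 below (0.0017), in a comparison that called 33.1% of all genes. In MAVS MPS1i, PNPT1 was 0.51 ± 0.06 below SCR (1.8e-06), ZC3HAV1 0.50 ± 0.04 (4.5e-09) and ADAR 0.17 ± 0.04 (0.0033), while EIF2AK2 at -0.08 ± 0.05 was not called (0.27), with 15.9% of all genes called. Both comparisons use the same 2 SCR MPS1i libraries, as does that of DKO. In DKO MPS1i the differences were -3.21 ± 0.07 for PNPT1 (9.26-fold lower), -2.29 ± 0.05 for EIF2AK2 (4.90-fold lower), -1.94 ± 0.05 for ZC3HAV1 (3.84-fold lower) and -1.65 ± 0.04 for ADAR (3.15-fold lower). All had an adjusted p of 1.2e-20 or less, and 45.1% of all genes were called.

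**Figure D4:**
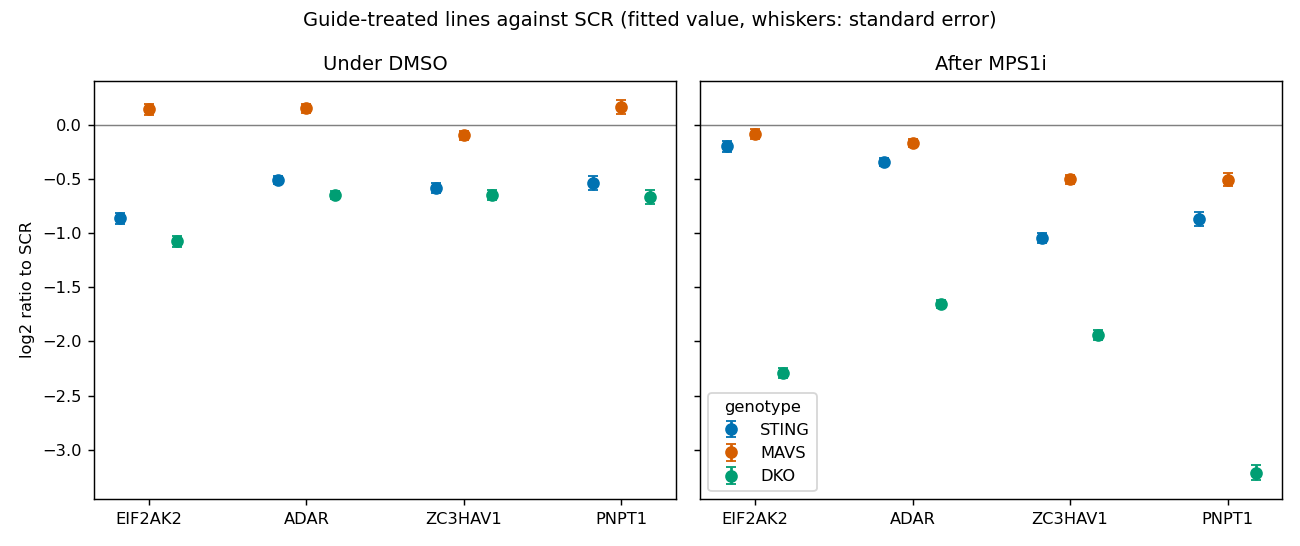
Log2 ratio of the STING, MAVS and DKO lines to SCR under DMSO (left) and after MPS1i (right) for the 4 expressed genes; points are fitted values and whiskers standard errors. Under DMSO the STING and DKO points lie together below 0 and MAVS lies near it, and after MPS1i the DKO points lie between -1.65 and -3.21.

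DKO MPS1i was also below each single line after the same pulse. Against STING MPS1i, PNPT1 differed by -2.34 ± 0.07 (adjusted p = 1.1e-17), EIF2AK2 by -2.09 ± 0.05 (2.1e-21), ADAR by -1.31 ± 0.04 (4.8e-19) and ZC3HAV1 by -0.90 ± 0.05 (3.8e-14), with 14.1% of all genes called. Against MAVS MPS1i, PNPT1 differed by -2.70 ± 0.07 (4.6e-19), EIF2AK2 by -2.21 ± 0.05 (5.0e-22), ADAR by -1.49 ± 0.04 (2.0e-20) and ZC3HAV1 by -1.44 ± 0.05 (8.5e-19), with 27.3% called. All 4 genes were thus lower in DKO than with either guide alone.

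Whether the size of the MPS1i effect differed between genotypes was tested as a difference of effects. In STING less SCR, EIF2AK2 rose more, by 0.66 ± 0.07 (adjusted p = 7.7e-08), and ZC3HAV1 rose less, by -0.46 ± 0.06 (6.5e-06). PNPT1 also rose less, by -0.33 ± 0.09 (0.011), and ADAR rose more, by 0.16 ± 0.06 (0.037). This test called 19.5% of all genes. The PNPT1 call was lost without SCR DMSO 1, STING DMSO 2 or STING MPS1i 2 (0.075 to 0.081). The ADAR call was lost without SCR DMSO 1, SCR MPS1i 2 or any 1 of the 4 STING libraries (0.052 to 0.19), and also without a filter (0.055) and with the stricter filter (0.06). The calls of EIF2AK2 and ZC3HAV1 held in all alternatives that were run.

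In MAVS less SCR, all 4 genes rose less. PNPT1 differed by -0.67 ± 0.09 (adjusted p = 1.6e-05), ZC3HAV1 by -0.41 ± 0.06 (7.5e-05), ADAR by -0.32 ± 0.06 (0.00028) and EIF2AK2 by -0.23 ± 0.07 (0.038), where 7.44% of all genes were called. The EIF2AK2 call was lost without SCR DMSO 1, SCR MPS1i 2, MAVS DMSO 1, MAVS DMSO 2 or MAVS MPS1i 2 (0.065 to 0.19). In DKO less SCR the differences were -2.55 ± 0.09 for PNPT1 (1.5e-15), -1.29 ± 0.06 for ZC3HAV1 (2.0e-14), -1.22 ± 0.07 for EIF2AK2 (2.6e-13) and -1.01 ± 0.06 for ADAR (1.8e-13), with 28.0% of all genes called. In MAVS less STING, EIF2AK2 differed by -0.89 ± 0.07 (1.6e-09), ADAR by -0.48 ± 0.06 (2.0e-06) and PNPT1 by -0.34 ± 0.09 (0.039), with 3.90% of all genes called. ZC3HAV1 was at 0.06 ± 0.06 in that test (0.72). The PNPT1 call there was lost without STING DMSO 1, STING MPS1i 1, MAVS DMSO 1, MAVS DMSO 2 or MAVS MPS1i 2 (0.072 to 0.20) and with only the compared groups (0.056).

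The 8 group means of each gene were placed in order, and neighbours in that order were tested in the same fit. EIF2AK2, ADAR and PNPT1 shared 1 order, from SCR MPS1i through MAVS MPS1i, STING MPS1i, MAVS DMSO, SCR DMSO, STING DMSO and DKO MPS1i to DKO DMSO. For EIF2AK2, the test did not tell apart the neighbours among the 3 treated groups at the top (adjusted p = 0.27 and 0.12), MAVS DMSO and SCR DMSO (0.077) or the DKO groups (0.31). STING DMSO was above DKO MPS1i by 0.13 ± 0.05 for EIF2AK2 (0.042), a comparison in which 29.6% of all genes were called. For ADAR, only STING DMSO and DKO MPS1i were not told apart (0.73). For PNPT1, the pairs not told apart were MAVS DMSO and SCR DMSO (0.15), STING DMSO and DKO MPS1i (0.41) and the DKO groups (0.74). STING MPS1i was above MAVS DMSO by 1.56 ± 0.06 for PNPT1 (2.0e-14), 0.95 ± 0.05 for EIF2AK2 (4.4e-14) and 0.63 ± 0.04 for ADAR (3.2e-12), where 26.4% of all genes were called.

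ZC3HAV1 had an order of its own, with SCR DMSO above MAVS DMSO and DKO MPS1i above STING DMSO, and neither pair was told apart (adjusted p = 0.22 and 0.24). STING MPS1i was above SCR DMSO by 0.39 ± 0.04 (1.3e-07), where 37.7% of all genes were called. MAVS DMSO was above DKO MPS1i by 0.41 ± 0.05 (1.4e-07), where 26.8% were called. STING DMSO and DKO DMSO, at the bottom, were not told apart (0.35), where 17.1% were called. For ZBP1 only SCR MPS1i and MAVS MPS1i could be placed, in that order.

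Levels of different genes were compared only per kilobase of exon, from the summed exon length of GENCODE v29. That length joins the exons of all isoforms of a gene, whether expressed here or not, so comparisons between genes depend on it. In SCR DMSO, ADAR had 83.0 ± 0.143 CPM per kilobase, EIF2AK2 47.7 ± 2.67, ZC3HAV1 44.1 ± 1.61 and PNPT1 19.5 ± 1.21. In SCR MPS1i, EIF2AK2 (117 ± 5.23), PNPT1 (117 ± 4.13) and ZC3HAV1 (119 ± 3.93) lay within each other's SD, below ADAR at 181 ± 0.901. On this scale PNPT1, the lowest of the 4 before the pulse, stood level with the kinase and the CpG binder after it in SCR cells. In DKO MPS1i it remained lowest, at 12.7 ± 0.560 CPM per kilobase against 57.5 ± 0.585 for ADAR. ZBP1 had 0.238 ± 0.00243 CPM per kilobase in SCR MPS1i.

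The genes whose pattern over the 8 groups was most like each gene were found by the root mean square difference of the centred log2 group means, over 13881 genes (13882 for ZBP1). Closest to PNPT1 were TDRD7 (0.0651), STAT2 (0.0814) and PARP12 (0.133). Closest to ZC3HAV1 were PSME2 (0.103), TRIM26 (0.112) and N4BP1 (0.130). N4BP1 was also closest to ADAR (0.15), followed by CMTR1 (0.169) and TRIM25 (0.174). Closest to EIF2AK2 were TRIM14 (0.153), REC8 (0.163) and APOL6 (0.202). For ZBP1, CTSS (0.386), LINC02701 (0.414) and LINC02605 (0.440) were nearest, all at larger distances. ZBP1 was at or under the floor in every group but SCR MPS1i and MAVS MPS1i. The log2 values used a prior count of 2, which largely sets its values in those floor groups. So the distances of ZBP1 cannot tell which genes it is like. Between the genes themselves, ADAR and ZC3HAV1 were closest (0.193). EIF2AK2 and ZBP1 had the largest distance (1.05), which rests on the same floor values. PNPT1, although in the same order of groups as ADAR, differed from it by 0.598, as its range was wider.

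Genes that work with each of the 5 were read from fixed lists, given here as counts called and medians beside the median of all genes tested, 0.031 in SCR and 0.0036 in DKO. The lists' counts in SCR and DKO stand against the 50.0% and 14.8% of all genes called there in either direction. Around EIF2AK2, the eIF2alpha list holds the subunits of eIF2 and eIF2B, the other eIF2alpha kinases and the phosphatase subunits for eIF2alpha. It also holds PRKRA, TARBP2, DNAJC3 and the transcription factors ATF4 and DDIT3, so not all of the list lies downstream of EIF2AK2. Of its 18 genes, 4 rose and 10 fell in SCR after MPS1i, with a median of -0.19. Without SCR MPS1i 1, 5 fell. PPP1R15A, the phosphatase subunit that reverses eIF2alpha phosphorylation, rose by 1.58 ± 0.06 (adjusted p = 3.8e-18), from 82.6 ± 1.72 to 247 ± 3.48 CPM, and its constitutive relative PPP1R15B by 0.39 ± 0.04 (3.5e-08). EIF2S3, a subunit of eIF2, fell by 0.73 ± 0.04 (8.5e-14) and ATF4 fell by 0.59 ± 0.05 (7.7e-10). PPP1R15A also rose in STING (0.49 ± 0.06) and MAVS (1.00 ± 0.06), by less than in SCR (differences of -1.09 ± 0.08 and -0.58 ± 0.08, adjusted p = 2.7e-10 and 1.3e-05). In DKO, 2 genes of the list were called higher and 2 lower, and PPP1R15A was at 0.07 ± 0.06 (0.47). Without DKO MPS1i 1 or DKO MPS1i 2 none was called higher, and without DKO DMSO 2, 1 was.

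The list around ADAR holds other proteins that bind, edit or process double-stranded RNA. Of 14 genes 12 were tested, and in SCR 3 rose and 4 fell, with a median of 0.02. STRBP, a binding protein, fell by 0.99 ± 0.06 (adjusted p = 5.8e-13) and STAU2 by 0.49 ± 0.05 (8.8e-09). STAU1 rose by 0.42 ± 0.05 (1.2e-07) and SON, a splicing cofactor, by 0.35 ± 0.04 (6.0e-08). In DKO none of the list rose and 3 fell, and STRBP fell there by 0.31 ± 0.06 (0.0011). Without DKO DMSO 1, 1 gene was called higher. So the called changes around ADAR in SCR went both ways, and those named were smaller than the 1.12 of ADAR.

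The list around ZBP1 holds the necroptosis and caspase-8 genes. Of 8 genes 7 were tested, as RIPK3, the kinase that joins ZBP1 to MLKL, had 0 counts in all 16 libraries, which allows up to 3 counts in each, or at most 0.152 CPM. In SCR 6 rose and none fell, with a median of 0.77. MLKL, which permeabilises the membrane once phosphorylated by RIPK3, went from 39.1 ± 1.99 to 134 ± 2.52 CPM, a rise of 1.78 ± 0.06 (adjusted p = 1.0e-18). CFLAR, an inhibitor of caspase-8, rose by 0.77 ± 0.04 (6.8e-14) and RIPK1 by 0.77 ± 0.05 (3.8e-12). The list had 6 genes called higher in STING and 6 in MAVS, where MLKL rose by 1.06 ± 0.06 and 1.14 ± 0.06. MLKL still rose in DKO, from 25.4 ± 2.30 to 35.9 ± 1.18 CPM (0.50 ± 0.07, adjusted p = 5.1e-06), by 1.28 ± 0.09 less than in SCR on the log2 scale (1.5e-11). Of the list, 2 genes were called higher in DKO, and 1 without DKO MPS1i 1 or DKO MPS1i 2.

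The list around ZC3HAV1 holds its cofactors and the RNA decay machinery, and TNFRSF10D, whose mRNA ZC3HAV1 is known to destabilise. Of 16 genes, 7 rose and 3 fell in SCR, with a median of 0.20. N4BP1, an RNA endonuclease, rose by 1.58 ± 0.04 (adjusted p = 2.6e-20), the decapping factor DCP1A by 1.25 ± 0.05 (1.2e-16) and TRIM25, a ubiquitin ligase that ZC3HAV1 needs for its antiviral action, by 0.97 ± 0.04 (3.8e-16). The decapping enzyme DCP2 fell by 0.42 ± 0.06 (3.7e-06). TNFRSF10D, a decoy receptor for TRAIL, went from 36.9 ± 3.06 to 18.9 ± 2.60 CPM in SCR, where it fell by 0.97 ± 0.08 (5.8e-11). In DKO it went the other way, from 58.5 ± 0.0101 to 89.9 ± 2.70 CPM, a rise of 0.62 ± 0.07 (4.5e-07). The effect in DKO less that in SCR was 1.59 ± 0.10 for TNFRSF10D (5.3e-12). After the pulse TNFRSF10D was at 18.9 CPM in SCR, 26.7 ± 0.809 in MAVS, 42.9 ± 1.15 in STING and 89.9 in DKO, while ZC3HAV1 was at 982, 692, 476 and 255 CPM. Over all 8 groups the orders of the means were not opposite. In DKO both means were higher after MPS1i than under DMSO, and STING MPS1i had higher means of both than SCR DMSO. The ZC3HAV1 call in DKO was lost in several alternatives, and the TNFRSF10D difference between STING MPS1i and SCR DMSO was not tested. A part of ZC3HAV1 in the level of TNFRSF10D was not tested. TRIM25 fell in DKO by 0.21 ± 0.04 (0.0018), and of the list 1 gene rose and 2 fell there; without DKO DMSO 2, 1 fell.

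The list around PNPT1 holds genes of mitochondrial RNA processing and decay. Of 14 genes, 4 rose and 6 fell in SCR, with a median of -0.11. Without SCR DMSO 1 or SCR DMSO 2, 2 rose. LRPPRC, which stabilises mitochondrial mRNA, fell by 0.58 ± 0.05 (adjusted p = 7.6e-10) and the mitochondrial poly(A) polymerase MTPAP by 0.29 ± 0.06 (0.00013). FASTKD5 rose by 0.45 ± 0.07 (3.1e-06) and the RNase Z ELAC2 by 0.24 ± 0.05 (0.0005). In DKO 1 gene was called higher and none lower. Without DKO DMSO 1, 3 were called lower, and without DKO MPS1i 1 none was called higher. PNPT1, with its change of 2.59, lay outside the range of all 14.

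Receptors and enzymes that sense RNA beside the genes above were read the same way. Of the 5 genes for RIG-I-like receptors, their adaptor MAVS and TLR3, 4 rose and 1 fell in SCR, with a median of 3.27. DDX58, which encodes RIG-I, rose by 3.43 ± 0.06 (adjusted p = 6.5e-22), IFIH1, which encodes MDA5, by 3.31 ± 0.07 (1.3e-20) and TLR3 by 3.27 ± 0.08 (1.1e-21), while the MAVS transcript fell by 0.64 ± 0.05 (7.7e-12). In DKO none rose and MAVS fell by 0.19 ± 0.05 (0.0052). Without DKO MPS1i 1, none was called lower, and without DKO DMSO 2, 1 was called higher. Of 7 genes of the OAS and RNase L pathway, 5 rose and 1 fell in SCR, with a median of 2.70. OAS2 rose by 3.92 ± 0.05 (2.3e-26), OAS1 by 2.79 ± 0.05 (1.4e-23) and OAS3 by 2.70 ± 0.04 (1.3e-24), and ABCE1, an inhibitor of RNase L, fell by 0.16 ± 0.05 (0.013). In DKO 3 of the 7 rose, among them OAS2 by 0.78 ± 0.07 (1.6e-08) and OAS1 by 0.63 ± 0.06 (1.2e-08).

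Of 12 interferon signalling genes, 10 rose and 1 fell in SCR, with a median of 0.68. IRF1 rose by 2.88 ± 0.07 (adjusted p = 2.6e-21) and STAT2 by 2.70 ± 0.05 (5.2e-24). The receptor chain IFNAR1 fell by 0.20 ± 0.05 (0.0033), and without SCR DMSO 2 no gene of the list was called lower. STAT2 had an effect in STING 0.50 ± 0.07 smaller than in SCR (6.2e-06), and that of PNPT1 was 0.33 ± 0.09 smaller. In DKO 3 genes of the list rose and 1 fell, with STAT2 at -0.02 ± 0.05 (0.87). Without DKO MPS1i 1, 1 rose and none fell, and without DKO DMSO 2 or DKO MPS1i 2 none fell.

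Differences between lines in the counts per list were not tested. In STING and MAVS, where 29.4% and 33.4% of all genes were called, the OAS and RNase L list had 5 genes called higher in each line and the receptor list 4. The interferon signalling list had 6 in STING and 7 in MAVS. The list around ZC3HAV1 had 6 higher and 3 lower in STING and 7 and 2 in MAVS. The STING counts became 3 and 1 without STING MPS1i 2, and 1 lower without STING DMSO 1. Over all alternatives, the eIF2alpha list had 2 to 5 genes called lower in STING and 2 to 6 in MAVS, and the mitochondrial list 1 to 3 and 1 to 4.

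**Figure D5:**
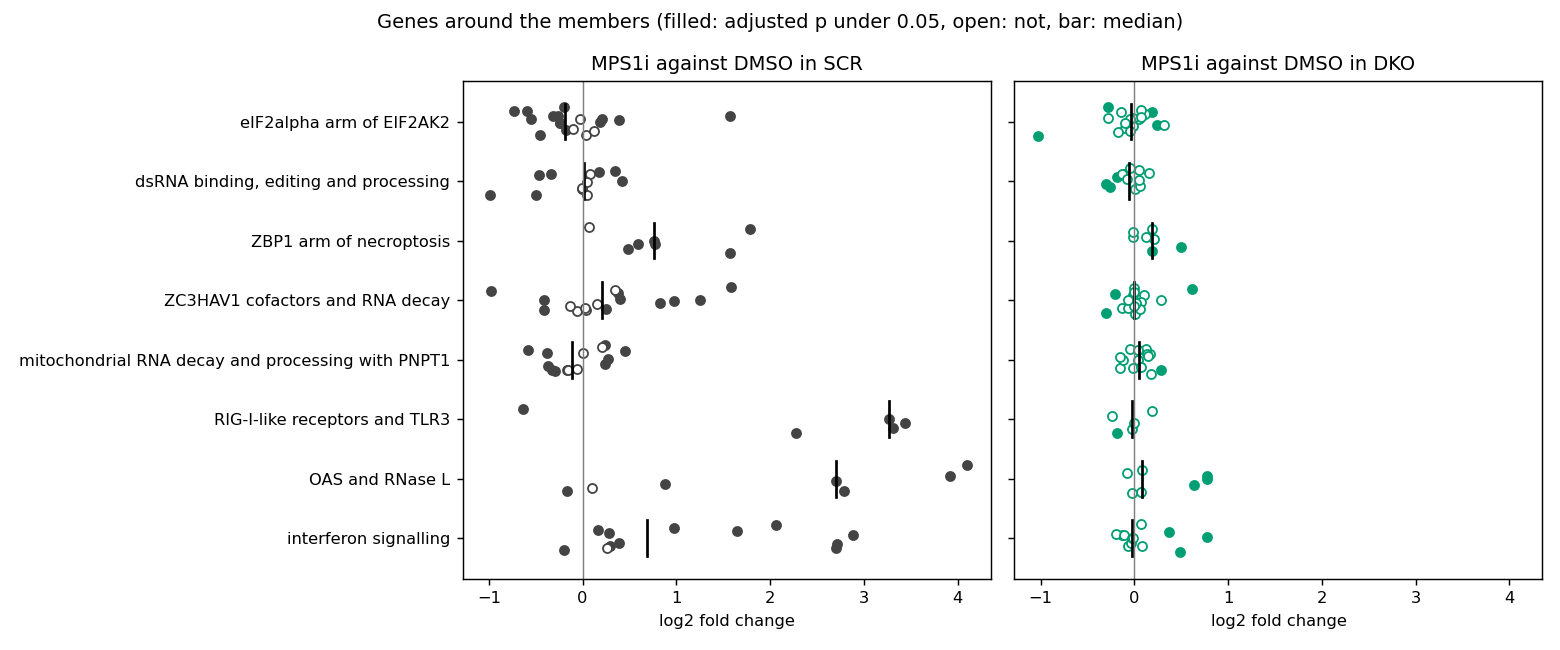
Log2 fold change of MPS1i against DMSO in SCR (left) and DKO (right) for the tested genes of the 8 lists; each point is a gene, filled where called and open where not, and the bar is the median of the list. RIG-I-like receptor and OAS lists have medians of 3.27 and 2.70 in SCR, the eIF2alpha and mitochondrial lists lie around 0, and all medians in DKO lie near 0.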

How the data were processed

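The authors deposited raw counts per gene, 1 column per library, with no normalization per the file headers. Per the submitters' processing notes, Trim Galore, cutadapt and Trimmomatic were used on the reads, STAR aligned them to GRCh38/hg38 and featureCounts counted them; versions and strand setting are not given in the sources used here. The kit was stranded and followed poly(A) enrichment, per the labels' protocols. Total counts per library ran from 19893784 to 49769938, and replicates differed by more than sampling noise (chi-square per gene 2.80 to 9.44). At these depths a count of 0 allows up to 3 counts; intervals and floors cover counting error only.

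All 16 libraries were fitted in R 4.3.3 with edgeR 4.0.16 (TMM, filterByExpr with minimum count 10 and minimum total 15, 1 mean per group, robust quasi-likelihood F-test, two-sided), which tested 17950 genes. Values of p were adjusted by Benjamini-Hochberg within each of 18 contrasts. Each standard error was taken from F, as the size of the log2 change over the root of F. The script was tested on simulated data. The alternatives were size factors by RLE, DESeq2 1.42.0, no filter, a stricter filter (1 CPM in 2 libraries), only the compared groups, the replicate number as a block, and leaving out each library.

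The length column of the deposited table holds the gene's span, introns included, so GENCODE v29 exon length replaced it; this and the alternatives for the list counts were chosen after seeing the data. The 5 genes and the gene lists were chosen with earlier results of these data known. Of each list, the text names up to 3 genes called in SCR with the smallest adjusted p and up to 2 called in the opposite direction, and MLKL, TNFRSF10D and others among them are followed in other groups. RIPK3 was singled out after its values were seen. Some genes that this rule takes are not reported here.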

Additional observations from a re-analysis of the deposited data

Results flagged for a closer look

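The effect of the MPS1i pulse differed between genotypes by the test of the difference itself in 15 cases among EIF2AK2, ADAR, ZC3HAV1 and PNPT1. The values are log2 differences of 2 effects. The same tests called 19.5% of all genes for STING less SCR, 7.44% for MAVS less SCR, 28.0% for DKO less SCR and 3.90% for MAVS less STING. The calls of ADAR and PNPT1 in STING less SCR, of EIF2AK2 in MAVS less SCR and of PNPT1 in MAVS less STING were each lost on leaving out single libraries. The STING line differed from SCR in both directions, at 0.66 for EIF2AK2 and 0.16 for ADAR, but -0.46 for ZC3HAV1 and -0.33 for PNPT1. The MAVS line had smaller effects than SCR on all 4 genes, at -0.23 for EIF2AK2, -0.32 for ADAR, -0.41 for ZC3HAV1 and -0.67 for PNPT1. The DKO line had the smallest effects, at -1.22 for EIF2AK2, -1.01 for ADAR, -1.29 for ZC3HAV1 and -2.55 for PNPT1 relative to SCR. Between the single lines, MAVS less STING was -0.89 for EIF2AK2, -0.48 for ADAR and -0.34 for PNPT1. EIF2AK2 had a lower untreated level in STING (282 ± 5.85 CPM) than in SCR (513 ± 28.7 CPM), and stood at 1096 and 1259 CPM after the pulse. The part of that baseline in the difference was not tested.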

How the results depend on the processing

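Of the 5 genes, 2 were called for the MPS1i effect in DKO; with no filter 0 were, with only the compared groups 0, with the replicate block 1 (ZC3HAV1), and leaving out 1 DKO library gave 0 to 0. In MAVS against SCR under DMSO, 1 was called, and 0 to 0 without 1 of the compared libraries. For the MPS1i effect in STING less that in SCR, 4 were called, and 2 to 4 without 1 library. The shares of all genes called in these 3 comparisons were 14.8%, 6.56% and 19.5%, in the order given. No result called for the 4 expressed genes reversed. The alternatives followed the single values of the 4 expressed genes and, for ZBP1, only MAVS against SCR after MPS1i. The pulse effect of ZBP1 in MAVS was not among them. The ZBP1 comparison that was followed uses SCR MPS1i, the group that let the gene pass the filter. It is counted in the totals that follow, but its side of the threshold is no support. Of the values followed, 754 kept their side of the threshold over the alternatives and 40 did not. For 1 of the 40, DESeq2 gave no adjusted p. Apart from that 1, each gene concerned is named with its result, and the cause was not tested. RLE size factors changed none of these and moved the median of all genes by at most 0.0117. The order of levels was the same with RLE. Same-numbered replicates did not deviate together (r from -0.0470 to 0.0878, median 0.00922, over 28 pairs of groups), so they were not treated as paired. The replicate block gave 9008 called genes in SCR against 8983, and changed no other call of the 4 expressed genes than ADAR in DKO. DESeq2 called 7726 genes in SCR and 2208 in DKO, against 8983 and 2648. Of the counts per list, 575 stayed within 1.5 times and 65 did not, mostly counts of 0 to 5 genes. ZBP1 was at 3 counts or fewer per library in 6 of 8 groups: no fold is given between 2 such groups, and a ratio over 1 to 3 counts carries its wide counting interval.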
